A study of Mus musculus with 16 samples.

Results

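Loss of FOXL2 was examined in single newborn mouse ovaries by comparing 4 Foxl2 KO ovaries with 4 control ovaries, which are 8 of the 16 arrays of a series with 4 genotypes. The members were chosen by their source label alone, and all 18193 genes with a probe set matched to no other gene were tested. Foxl2 KO ovaries were Runx1+/f Foxl2-/- Sf1-cre+/+, and control ovaries were Runx1+/f Foxl2+/+ Sf1-cre+/+. Neither genotype carried Cre, both carried 1 floxed Runx1 allele beside a wild-type one, and the Foxl2 null allele was present in all cells of the mouse, not in the ovary alone. Each ovary was taken at birth and hybridised on its own array, so that the whole organ was measured. The study's methods state removal of the mesonephros for other gonads, but not for these. A lower signal from fewer cells of a type and one from less RNA per cell cannot be told apart in such tissue. The ovaries of both groups came from the same kind of cross, and the labels tie none of them to a litter.

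FOXL2 is a forkhead transcription factor made by the pre-granulosa cells, the supporting cells that surround the oocytes, and later by granulosa cells. It is known for keeping these cells on the ovarian path. In the ovary it works beside the estrogen receptors and against SOX9, the factor that directs the Sertoli cells of the testis. At birth the mouse ovary is breaking up its germ cell nests into primordial follicles, each an oocyte with its shell of pre-granulosa cells.

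All arrays had been scaled to the same trimmed mean. The median intensity was 138 to 169 in Foxl2 KO ovaries and 135 to 153 in control ovaries, and correlations between arrays on the log2 scale were 0.974 to 0.981 within Foxl2 KO, 0.959 to 0.982 within control and 0.953 to 0.977 between the genotypes. The summed intensity of the germ cell markers was 14932 to 24083 in Foxl2 KO ovaries and 13479 to 23764 in control ovaries, which overlap. The same sum for pre-granulosa markers was 7340 to 10660 in Foxl2 KO ovaries and 10799 to 15539 in control ovaries, where Foxl2 itself is counted. Without Foxl2 the ranges overlap, so the sums do not show a fall of these markers as a class. Of the 7 markers, Foxl2 and Kitl were called lower and none higher, and the median log2 difference was 0.21. Control 4 stood apart by its red blood cell signal. The erythroid markers summed to 294 to 425 in Foxl2 KO ovaries, against 12053 in Control 4 and 355 to 604 in the other control ovaries. Results were therefore also computed without it. Y-linked genes other than Sry, all absent from these XX ovaries, read at a mean log2 level of up to 5.97, in Usp9y. That was used as the background level, a choice made with the values in view. Sry, whose probe set is shared with other transcripts, read above this level in every ovary and was left out. Levels are intensities, values of single ovaries are given in the order of replicates 1 to 4, and differences are Foxl2 KO minus control of log2(intensity + 16) with the standard error of the fit. The added 16 makes the difference of a dim gene smaller than that of the intensities themselves. Where 1 genotype lay below background on average, the fold is given as a lower bound against that level.

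Foxl2 read 484, 714, 863 and 890 in Foxl2 KO ovaries, against 3588, 4191, 4241 and 2774 in control ovaries. The groups were far apart, but signal above background was left in each Foxl2 KO ovary. Foxl2 differed by -2.32 ± 0.20 (limma, adjusted p = 8.84e-06, n = 4 each), and its second, dimmer probe set by -2.77. The sources used here do not say whether the probes lie in the sequence that the null allele lacks.

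Of the 18193 genes, 276 passed an adjusted p of 0.05 (limma with Benjamini-Hochberg adjustment), which is 1.52% of those tested. In Foxl2 KO ovaries 148 were higher (0.813%) and 128 were lower (0.704%). The share of 1.52% is the level to hold beside each count of a list or family below. With the medians of the arrays made equal the split became 97 higher and 144 lower, 40.2% higher in place of 53.6%. In 271 of the 276 genes the 4 Foxl2 KO values lay wholly outside the 4 control values, as they did in 6.72% of all genes (4.49% with Foxl2 KO above control and 2.23% below). At an unadjusted p under 0.05 there were 1999 genes, 11% of all. The change reached 2-fold in 79 of the higher and 85 of the lower genes, and 4-fold in 8 of the higher and 15 of the lower ones. Of the higher genes, 38 were below background in the control group, and of the lower genes, 26 were below background in the Foxl2 KO group. Without Control 4 there were 239 calls, and without Control 3, the ovary that mattered most, there were 183.

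**Figure D1:**
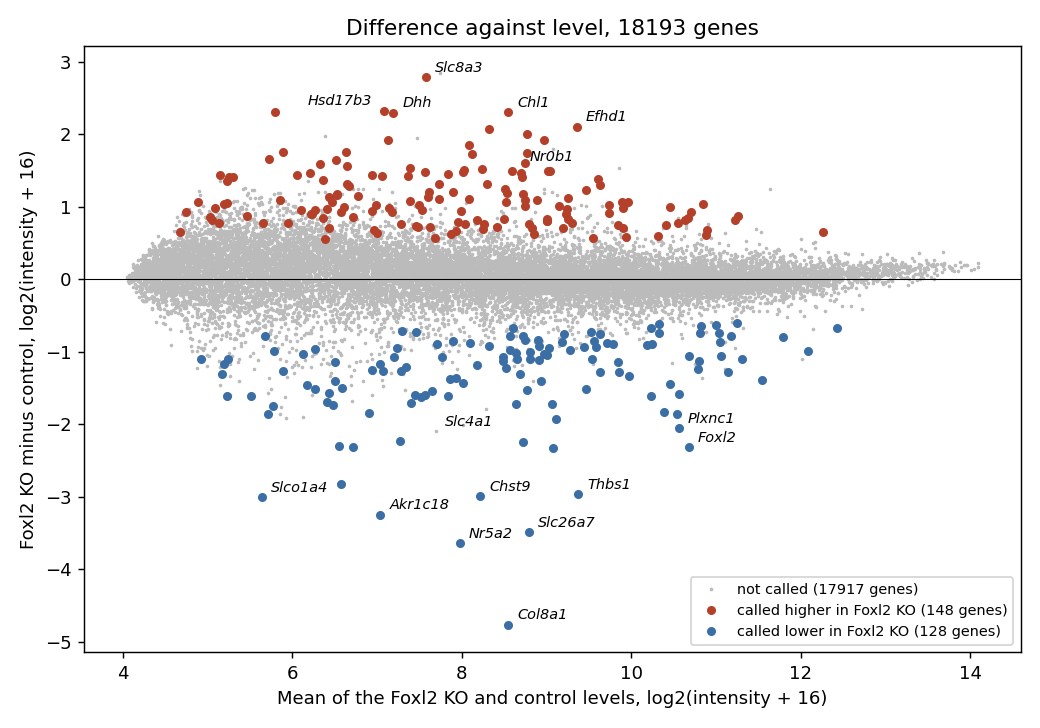
Difference between Foxl2 KO and control ovaries on the log2(intensity + 16) scale (vertical) against the mean level of both genotypes on that scale (horizontal), 1 point per gene for 18193 genes, with 148 genes called higher in red and 128 called lower in blue. Col8a1, Nr5a2 and Slc26a7 lie lowest, and Slc8a3 is the highest called gene.

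The 3 steepest falls were those of a collagen, of Nr5a2, described with the nuclear receptors, and of an anion exchanger. Col8a1, a short-chain collagen of basement membranes, had 62.0, 66.0, 50.9 and 45.3 in Foxl2 KO ovaries, against 1374, 2318, 1907 and 2282 in control ovaries. Its difference of -4.76 ± 0.29 was 27.2-fold (adjusted p = 3.96e-07). Slc26a7, an exchanger of chloride and bicarbonate, had 109, 139, 102 and 116 in Foxl2 KO ovaries, against 1620, 1712, 1645 and 1010 in control ovaries, a difference of -3.49 ± 0.22. In Foxl2 KO ovaries Col8a1 was left close to background and Slc26a7 above it, and both genes were also called lower by each of their other probe sets. Those of Col8a1 differed by -1.46 and -3.53, so the size of its fall depended on the probe set. That of Slc26a7 differed by -3.81. The steepest rise among called genes was in Slc8a3, a sodium-calcium exchanger, with 542, 341, 629 and 481 in Foxl2 KO ovaries, against 49.5, 73.2, 55.7 and 50.9 in control ovaries. It differed by 2.79 ± 0.29, or 6.91-fold (adjusted p = 9.05e-05). Myl1, a myosin light chain, had a larger difference still, 2.84, with no overlap between the genotypes, but did not pass the test (adjusted p = 0.139). It is named here after its values were seen.

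**Figure D2:**
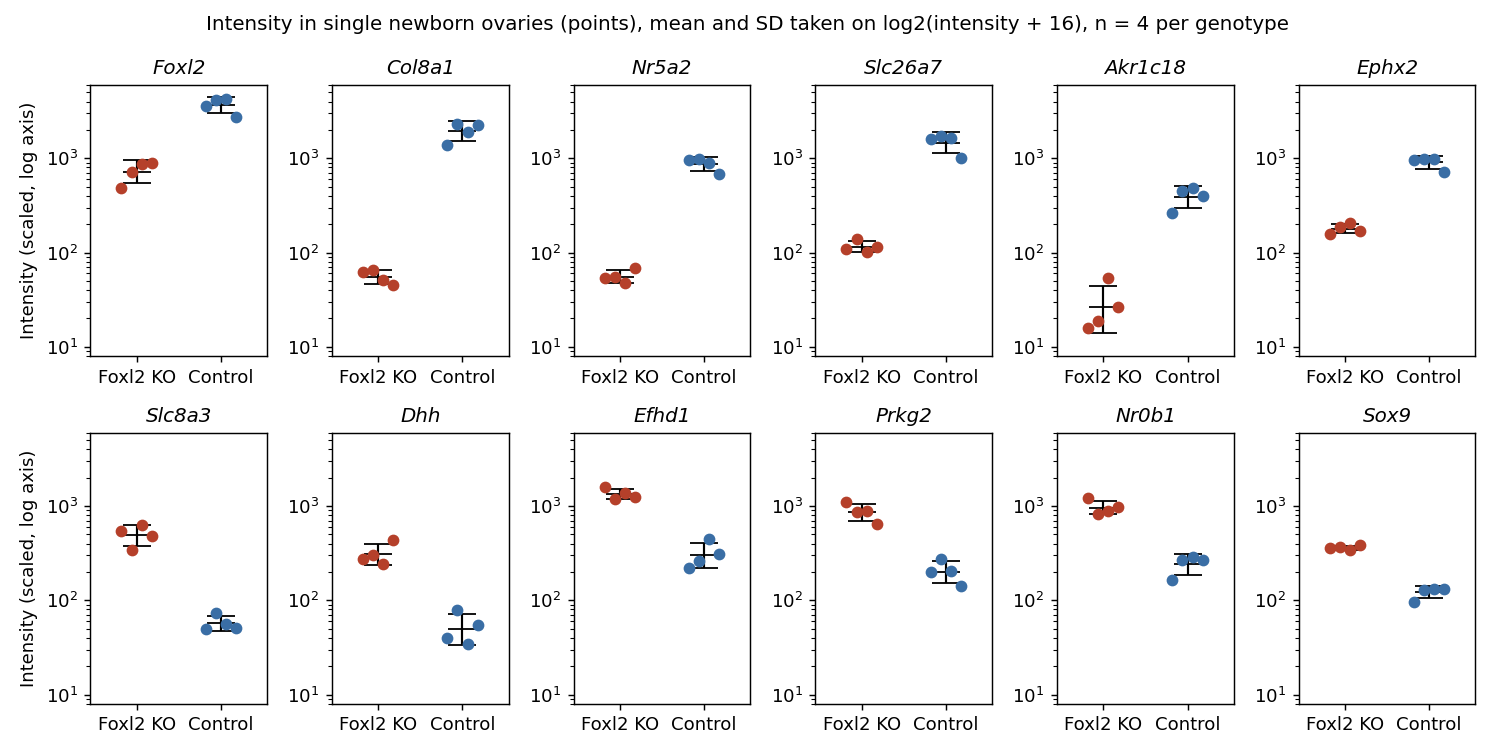
Intensity on a log axis for 12 genes in single newborn ovaries, 1 point per ovary, with Foxl2 KO in red on the left and control in blue on the right of each panel. The bars are the mean and SD of 4 ovaries, taken on log2(intensity + 16), and in each of these genes the genotypes do not overlap.

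The promoters of the changed genes were read from the RefSeq table of build GRCm38.p6, from 250 bases before to 50 after each start, and were present for 14367 of the tested genes. The core letters bound by forkhead factors, TGTTTAC or on the other strand GTAAACA, were in 3.38% of these promoters, in 10 of the 115 of genes that were higher (8.7%) and in 2 of the 96 of genes that were lower (2.08%). A motif of the NR5A receptors, AAGGTCA or TGACCTT, was in 4.61% of all, 5.22% of the higher and 3.12% of the lower ones. A motif of RUNX factors, TGTGGTT or AACCACA, was in 5.04% of all, 3.48% of the higher and 4.17% of the lower ones. None of the motifs overlaps another. Of the 40 genes with the largest changes, 26 had a promoter in the table, 1 of these held a motif, and none held the forkhead letters. These shares describe letters in a short window and were not tested.

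Below are the promoter of that gene, Chit1, a chitinase of macrophages that was higher in Foxl2 KO ovaries, and those of 3 called genes with forkhead letters, picked after their values were seen as the most changed ones with a gene name. They show where in the window the letters lie, with the motif in capitals and the gene's own strand from 5′ to 3′. Il33, an alarmin of the interleukin family, and Aldoc, a glycolytic aldolase, were higher in Foxl2 KO ovaries, and Csrnp3, a nuclear protein, was lower. The windows are chr1:134110992-134111291 (plus strand, NR5A letters starting 70 bases before the gene start), chr19:29924863-29925162 (plus strand, forkhead letters 162 bases before), chr11:78323948-78324247 (plus strand, 148 bases before) and chr2:65931615-65931914 (plus strand, 106 bases before).
Chit1: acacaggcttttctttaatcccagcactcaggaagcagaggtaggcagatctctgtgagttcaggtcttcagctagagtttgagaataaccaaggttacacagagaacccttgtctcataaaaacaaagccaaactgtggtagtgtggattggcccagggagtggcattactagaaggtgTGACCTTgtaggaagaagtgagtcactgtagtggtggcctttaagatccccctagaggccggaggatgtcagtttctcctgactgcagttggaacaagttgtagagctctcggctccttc
Il33: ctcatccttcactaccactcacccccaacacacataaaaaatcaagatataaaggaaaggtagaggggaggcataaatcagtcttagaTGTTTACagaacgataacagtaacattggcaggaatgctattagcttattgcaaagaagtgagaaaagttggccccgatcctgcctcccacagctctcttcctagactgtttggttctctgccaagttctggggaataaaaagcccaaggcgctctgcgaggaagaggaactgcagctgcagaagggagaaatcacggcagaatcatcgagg
Aldoc: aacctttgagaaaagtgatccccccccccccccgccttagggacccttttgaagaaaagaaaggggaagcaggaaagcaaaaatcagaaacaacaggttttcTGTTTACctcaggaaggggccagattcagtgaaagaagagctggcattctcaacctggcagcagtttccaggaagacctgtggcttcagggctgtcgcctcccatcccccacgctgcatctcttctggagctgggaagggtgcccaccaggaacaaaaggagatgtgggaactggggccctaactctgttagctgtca
Csrnp3: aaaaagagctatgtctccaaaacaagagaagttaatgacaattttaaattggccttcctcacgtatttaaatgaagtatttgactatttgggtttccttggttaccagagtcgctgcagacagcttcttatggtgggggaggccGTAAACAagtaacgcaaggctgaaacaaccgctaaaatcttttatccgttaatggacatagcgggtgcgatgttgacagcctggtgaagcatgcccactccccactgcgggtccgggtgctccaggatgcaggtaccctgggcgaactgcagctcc
Chit1 read 346, 330, 200 and 185 in Foxl2 KO ovaries, against 58.7, 84.7, 34.1 and 54.1 in control ovaries. Il33 had 661, 444, 710 and 771 in Foxl2 KO ovaries and 186, 157, 296 and 242 in control ovaries, a difference of 1.495 ± 0.31 (limma, adjusted p = 0.0206) that was no longer called without any 1 of Foxl2 KO 1, Foxl2 KO 3, Foxl2 KO 4, Control 1 and Control 2 (adjusted p up to 0.0751). Aldoc ran from 219 to 372 in Foxl2 KO ovaries and from 92.8 to 182 in control ovaries. Csrnp3 was at 5.03 to 34.9 in Foxl2 KO ovaries, below background, and at 62.4 to 102 in control ovaries, at least 1.46-fold lower.

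Among enzymes that make or break down steroids, most of those that were called were lower. Of 23 such genes measured, 4 were lower and 1 was higher, while the median over all 23 was -0.02 (-0.04 to 0.04 without 1 ovary), beside 0.05 for all genes. Akr1c18, the enzyme that inactivates progesterone, had 16, 18.8, 53.4 and 26.7 in Foxl2 KO ovaries, against 260, 447, 489 and 401 in control ovaries, and was at least 6.47-fold lower (adjusted p = 3.07e-05). Hsd3b1, which turns pregnenolone into progesterone, had 620, 864, 652 and 972 in Foxl2 KO ovaries, against 3217, 3179, 2606 and 2347 in control ovaries, or -1.86 ± 0.20. Akr1c14, which reduces dihydro-steroids, had 1861, 1802, 1424 and 2295 in Foxl2 KO ovaries, against 4162, 5447, 4719 and 4985 in control ovaries, or -1.39 ± 0.16. In each of them every Foxl2 KO ovary was below every control ovary. Hsd17b7, which converts estrone to estradiol and also serves cholesterol synthesis, was lower by a smaller amount, with 353 to 605 in Foxl2 KO ovaries and 746 to 1490 in control ovaries (-1.09 ± 0.22). Its call was lost without Foxl2 KO 2, Foxl2 KO 3 or Control 3 (adjusted p up to 0.0653).

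The one steroid enzyme that rose was Hsd17b3, the testicular enzyme that makes testosterone from androstenedione. It read 230, 236, 216 and 563 in Foxl2 KO ovaries, against 68.2, 47.7, 56.6 and 17.7 in control ovaries, and was at least 4.83-fold higher (adjusted p = 0.00105). Foxl2 KO 4 was well above its fellows, and the call was kept without it. Star, which carries cholesterol into mitochondria, differed by 0.07 ± 0.21 and Cyp11a1, which starts steroid synthesis, by 0.37 ± 0.25, and neither was called. Cyp17a1, the enzyme of androgen synthesis, was at 29.6 to 60.4 in Foxl2 KO ovaries and 21.7 to 49.9 in control ovaries, close to background. No gene of the cytochrome P450 family was called by limma among 72 (8 of them at an unadjusted p under 0.05). Without Control 3 one of them, Cyp4v3, was called higher (limma, adjusted p = 0.0145).

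The wider family of aldo-keto reductases and hydroxysteroid and aldehyde dehydrogenases repeated this pattern, since it holds the same enzymes. Of 85 members, 5 were lower and 3 were higher. Besides those named it held Akr1c19, with 74.7, 109, 75.7 and 80.4 in Foxl2 KO ovaries, against 232, 389, 262 and 285 in control ovaries (-1.60 ± 0.18, adjusted p = 0.000188). Members of the Akr1c cluster are alike in sequence, and whether the probes of one read the RNA of another was not tested. Aldh1a3, which makes retinoic acid, was higher at 472 to 545 in Foxl2 KO ovaries, against 186 to 294 in control ovaries (1.07 ± 0.21, adjusted p = 0.0129). Hsd17b14 rose by less, at least 1.76-fold, and lost its call without 5 of the 8 ovaries (adjusted p up to 0.108). Ephx2, the soluble epoxide hydrolase that breaks down epoxides of arachidonic acid, had 157, 186, 205 and 171 in Foxl2 KO ovaries, against 957, 986, 983 and 718 in control ovaries. This was 4.72-fold lower (-2.24 ± 0.15, adjusted p = 7.66e-07). Gstm6, a glutathione transferase, was lower by 1.13 on the log2 scale as the only called one of 62 conjugating enzymes, with a call that was lost without any 1 of 5 ovaries (adjusted p up to 0.110).

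Nuclear receptors, which bind steroids and related ligands and switch genes directly, changed in both directions. Of 45 measured, 2 were lower and 2 were higher. Nr5a2, which drives steroid enzyme genes in granulosa cells, fell to the edge of detection. It had 53.4, 54.6, 47.0 and 68.1 in Foxl2 KO ovaries, against 968, 994, 888 and 684 in control ovaries (-3.64 ± 0.25, 12.5-fold, adjusted p = 7.66e-07), and its 3 other probe sets were also lower, by 1.58 to 3.23 on the log2 scale. Esr2, the estrogen receptor of granulosa cells, was at 12.2, 48.9, 40.9 and 44.3 in Foxl2 KO ovaries, against 161, 120, 141 and 111 in control ovaries, at least 2.36-fold lower (adjusted p = 0.00741). Nr0b1, a co-repressor of the NR5A receptors, moved the other way. It had 1209, 825, 889 and 966 in Foxl2 KO ovaries, against 164, 270, 284 and 266 in control ovaries (1.93 ± 0.19, 3.81-fold, adjusted p = 3.99e-05). Vdr, the vitamin D receptor, had 361, 272, 331 and 246 in Foxl2 KO ovaries, against 104, 90.0, 106 and 88.3 in control ovaries (1.48 ± 0.26), and both its probe sets rose alike. Nr5a1, the close relative of Nr5a2 that gonadal cells need to form, was at 762 to 903 in Foxl2 KO ovaries and 570 to 773 in control ovaries and was not called (0.38 ± 0.15, adjusted p = 0.332).

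Of the 191 G protein-coupled receptors measured, 3 were lower and none was higher, which is 1.57%, beside 1.52% of all genes. Those with the largest falls were both receptors for prostaglandin E. Ptger3 had 187, 247, 155 and 240 in Foxl2 KO ovaries, against 623, 707, 804 and 715 in control ovaries (-1.72 ± 0.22, adjusted p = 0.000459), while a dimmer probe set of it differed by -0.55 without a call. Ptger2 had 17.6, 2.97, 2.95 and 1.60 in Foxl2 KO ovaries, against 52.7, 50.9, 52.7 and 42.1 in control ovaries, which is barely above background (at least 1.05-fold, adjusted p = 0.00195). Gpr20, an orphan receptor, fell by 0.95 on the log2 scale and lost its call without 5 of the 8 ovaries (adjusted p up to 0.106). Pla2r1, the receptor of secreted phospholipases A, was at 7.50 to 77.7 in Foxl2 KO ovaries and 158 to 300 in control ovaries, at least 3.75-fold lower, and its other probe set was below background. Pla2g2f, a secreted phospholipase A, was at 58.1 to 198 in Foxl2 KO ovaries and 3.31 to 17.9 in control ovaries, at least 1.97-fold higher, while its other probe set, above background, differed by 0.33 without a call. Plcb4, a phospholipase C, was higher by 0.71 ± 0.17 with a call that held without Foxl2 KO 4 alone of the 8 ovaries (adjusted p up to 0.127).

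Several of the largest changes were in membrane transporters. Of the 358 solute carriers measured, 8 were lower and 4 were higher (3.35% called, beside 1.52% of all genes). Slco1a4, a carrier of organic anions such as steroid conjugates, was at 0.757, 2.21, 1.74 and 1.99 in Foxl2 KO ovaries, against 166, 147, 126 and 80.2 in control ovaries, at least 2.26-fold lower (adjusted p = 3.96e-07). Slco3a1, a relative of it, had 52.6, 33.8, 113 and 42.0 in Foxl2 KO ovaries, against 273, 422, 291 and 300 in control ovaries (-2.23 ± 0.29). Slc18a2, which loads monoamines into vesicles, had 312, 369, 579 and 389 in Foxl2 KO ovaries, against 1208, 1136, 1157 and 1194 in control ovaries (-1.51 ± 0.19). Together with Slc26a7 these are carriers of anions and amines, and none had a value shared by both genotypes. Slc52a3, a riboflavin transporter, went the other way with 543, 488, 423 and 566 in Foxl2 KO ovaries, against 77.9, 112, 135 and 216 in control ovaries (1.85 ± 0.25). Slc16a3, a lactate carrier, rose by 0.69 on the log2 scale and lost its call without Foxl2 KO 4 (adjusted p = 0.0538). Slc40a1, which exports iron, and Slc8a3 kept their calls without each of the 8 ovaries. Slc43a2, Slc35g1, Slc39a12 and Slc22a2 lost their calls without 6 to 8 of the 8 ovaries, taken one at a time (adjusted p up to 0.118), and the last 2 were below background in both genotypes.

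A gene that lets iron out of cells and one that oxidises it were called in opposite directions. Of 16 genes of iron, haem and oxygen, Slc40a1 was lower and Cp was higher, and the rest were not called. Slc40a1, or ferroportin, the channel by which iron leaves cells, had 1899, 1526, 1434 and 1119 in Foxl2 KO ovaries, against 2707, 2921, 3279 and 3403 in control ovaries (-1.05 ± 0.16, adjusted p = 0.00171). Cp, ceruloplasmin, which oxidises the exported iron, had 391, 395, 325 and 428 in Foxl2 KO ovaries, against 150, 193, 183 and 155 in control ovaries (1.11 ± 0.15, adjusted p = 0.00105). Both calls were kept without Control 4, the ovary with the red cell signal.

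Most of the called genes that bind or move calcium were higher. Among 83 EF-hand and other calcium-binding proteins, 3 were higher and 1 was lower. Efhd1, a mitochondrial calcium sensor, had 1598, 1181, 1375 and 1262 in Foxl2 KO ovaries, against 220, 261, 444 and 313 in control ovaries (2.11 ± 0.21, 4.32-fold, adjusted p = 3.99e-05). Pcp4, a modulator of calmodulin, had 729, 700, 416 and 784 in Foxl2 KO ovaries, against 207, 181, 129 and 75.3 in control ovaries (2.08 ± 0.34). Kcnip1, a calcium-binding partner of potassium channels, was at 167 to 223 in Foxl2 KO ovaries and 40.3 to 79.0 in control ovaries (1.44 ± 0.21). Calb1, the calcium buffer calbindin, was the one that fell, at 22.3 to 53.9 in Foxl2 KO ovaries and 98.7 to 204 in control ovaries, at least 2.59-fold. Of 27 genes of calcium release, pumps and exchangers, Slc8a3 alone was called, and Ryr2, a calcium release channel, was at 181 to 634 in Foxl2 KO ovaries and 414 to 918 in control ovaries (-0.62 ± 0.34, adjusted p = 0.553).

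Prkg2, the kinase driven by cyclic GMP, was the only called gene of 79 in cyclic nucleotide signalling (1.27%, beside 1.52% of all genes). It had 1093, 869, 877 and 648 in Foxl2 KO ovaries, against 199, 276, 204 and 143 in control ovaries (2.01 ± 0.20, 4.04-fold, adjusted p = 4.74e-05), and all 3 of its probe sets were higher. Of 84 potassium channel genes 2 were higher and 2 lower. Kcnq1 was at 701 to 1244 in Foxl2 KO ovaries and 270 to 487 in control ovaries (1.13 ± 0.22), and Kcnf1, a silent subunit, at 5.32 to 13 in Foxl2 KO ovaries and 39.5 to 84.2 in control ovaries, at least 1.27-fold lower. Scn3b, a sodium channel subunit, rose by 1.32 on the log2 scale. Kcnq1 lost its call without Foxl2 KO 2 (adjusted p = 0.0546) and Scn3b without Control 3 (adjusted p = 0.0511). Kcnj3 and Cacna1d were called as well, but not without 3 and 7 of the 8 ovaries taken singly (adjusted p up to 0.124).

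Most of the extracellular matrix genes that were called were lower. Of 97 laminins, thrombospondins, proteoglycans and other matrix proteins, 7 were lower and 3 were higher, while their median was 0.03 (-0.03 to 0.14 without 1 ovary), beside 0.05 for all genes. Thbs1, a thrombospondin that restrains blood vessel growth and activates TGF-beta, had 230, 168, 295 and 208 in Foxl2 KO ovaries, against 1658, 1903, 2308 and 1574 in control ovaries (-2.97 ± 0.24, 7.82-fold, adjusted p = 4.82e-06). Its relative Thbs2 had 486, 888, 633 and 525 in Foxl2 KO ovaries, against 1202, 1760, 1715 and 1721 in control ovaries (-1.34 ± 0.20). Sdc4, a cell surface proteoglycan, had 1882, 1635, 1283 and 1051 in Foxl2 KO ovaries, against 3521, 4375, 3363 and 2869 in control ovaries (-1.28 ± 0.20). Fbn2, a fibrillin of elastic microfibrils, had 1141, 1864, 1943 and 2068 in Foxl2 KO ovaries, against 3503, 4152, 3587 and 3528 in control ovaries (-1.10 ± 0.18). The genotypes were separate in all of these, and their calls were kept without any single ovary. Lama1, Sdc2 and Tnc were also lower, by 0.76, 0.59 and 1.28 on the log2 scale, but lost their calls without 3 to 7 of the 8 ovaries (adjusted p up to 0.135).

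Prelp, a proteoglycan that anchors basement membranes, rose with 842, 597, 473 and 842 in Foxl2 KO ovaries, against 306, 278, 231 and 172 in control ovaries (1.41 ± 0.22, adjusted p = 0.0032). Fbln2, a fibulin, and Bcan, brevican, were higher too, but not without any 1 of 4 or 5 ovaries (adjusted p up to 0.084). Col8a1 was the only called one of 42 collagen genes. Adamts16, a metalloprotease, had 562, 665, 635 and 481 in Foxl2 KO ovaries, against 1273, 1525, 1886 and 1140 in control ovaries (-1.28 ± 0.18). Its second probe set, above background, differed by -0.0042, and the call was lost with the mean of both. It was the one gene lower among 135 proteases and their inhibitors, of which 3 were higher. The 3 were Cst9, given with the Sertoli genes, Adam8 and Cst12, and these last 2 lost their calls without 4 or 5 of the ovaries (adjusted p up to 0.105). No integrin was called by limma among 23 (2 at an unadjusted p under 0.05). No claudin, connexin or tight junction gene was called by limma among 50, and the one with the largest difference was Cldn11, at 591 to 840 in Foxl2 KO ovaries and 152 to 476 in control ovaries (1.24 ± 0.32, adjusted p = 0.0746). Cldn11 was called higher without Control 4 (limma, adjusted p = 0.0481).

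Of 130 enzymes that add sulfate or sugars to such matrix molecules, 6 were lower and 1 was higher. Chst9, which sulfates N-acetylgalactosamine, had 68.3, 92.1, 112 and 89.6 in Foxl2 KO ovaries, against 923, 1031, 817 and 584 in control ovaries (-2.99 ± 0.21, 7.94-fold, adjusted p = 7.74e-07). The sialyltransferase St3gal6 was at 209 to 289 in Foxl2 KO ovaries and 461 to 923 in control ovaries (-1.30 ± 0.19). St3gal5, which makes the ganglioside GM3, was at 1469 to 2147 in Foxl2 KO ovaries and 2705 to 3401 in control ovaries (-0.78 ± 0.14). None of these 3 lost its call when single ovaries were left out. St3gal6 lost it with the mean of all its probe sets, and its others above background differed by -0.57 and -0.07 without a call. Chst2, Chst8 and Ust were lower too, but not without any 1 of 5 or 6 ovaries (adjusted p up to 0.108), Chst8 lay below background in both genotypes, and a second probe set of Ust differed by 0.09. Large2, which extends the glycans of dystroglycan, was at least 2.04-fold higher (adjusted p = 0.00248).

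**Figure D3:**
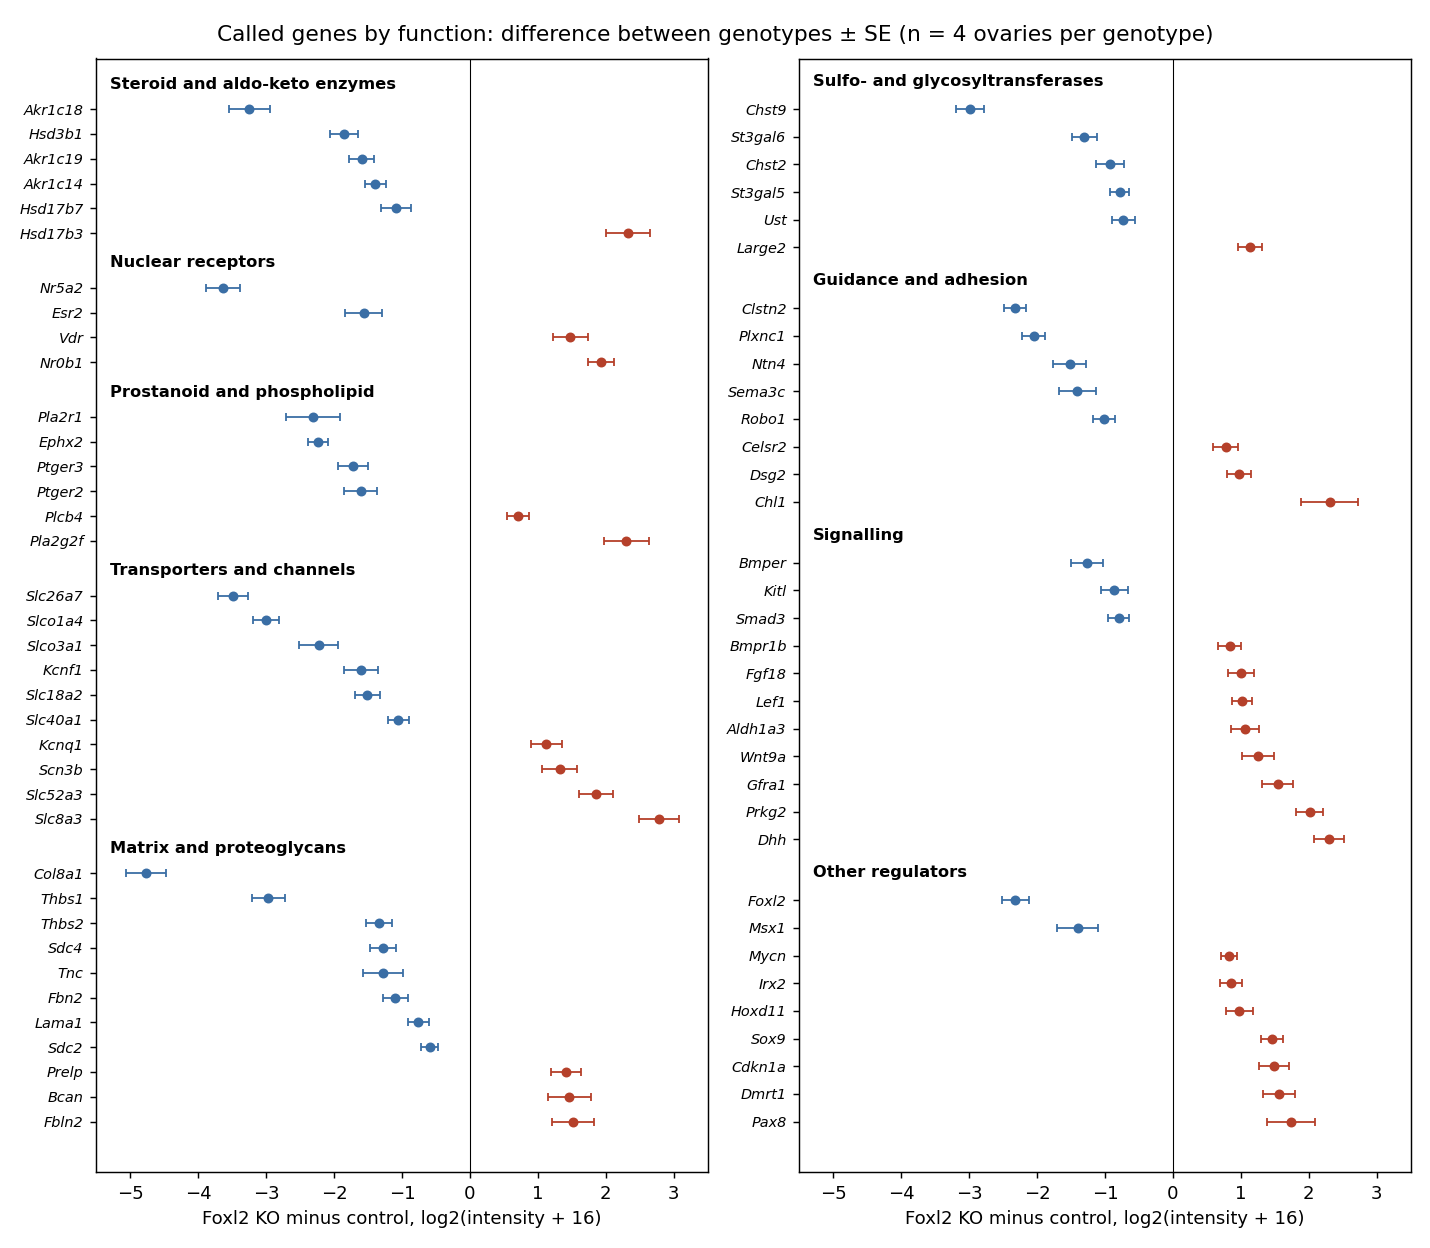
Difference between Foxl2 KO and control ovaries on the log2(intensity + 16) scale (horizontal, points) with its standard error (bars). A selection of called genes is drawn, grouped by what their products do, with rises in red and falls in blue. Of the genes drawn, those of matrix and sulfo- and glycosyltransferases stand mostly left of zero, and those of signalling mostly right. Signalling genes not drawn include Angptl1, Angptl6 and Crabp2, called lower, and Wif1 and Dtx1, called higher.

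Genes of axon guidance and of synapses, many of which also act in cell contact outside the nervous system, were called mostly as lower. Of 69 semaphorins, ephrins and other guidance cues, 3 were lower and none higher. Plxnc1, a semaphorin receptor, had 701, 893, 836 and 525 in Foxl2 KO ovaries, against 3356, 3401, 2999 and 2534 in control ovaries (-2.05 ± 0.18, 4.14-fold, adjusted p = 8.84e-06), and its 5 other probe sets fell as well. Ntn4, a netrin of basement membranes, was at 198 to 307 in Foxl2 KO ovaries and 521 to 1087 in control ovaries (-1.52 ± 0.24), and Sema3c, a secreted semaphorin, at 156 to 394 in Foxl2 KO ovaries and 699 to 904 in control ovaries (-1.41 ± 0.27). Robo1, the receptor of the Slit repellents, was at 219 to 338 in Foxl2 KO ovaries and 486 to 630 in control ovaries (-1.02 ± 0.16). Another probe set of Robo1, above background, differed by -0.19 without a call, and the call was lost with the mean of all its probe sets. Higher in Foxl2 KO ovaries was Chl1, a relative of the L1 adhesion molecule, with 821, 918, 926 and 638 in Foxl2 KO ovaries, against 74.6, 251, 173 and 159 in control ovaries (2.31 ± 0.42, adjusted p = 0.00956).

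Clstn2, a calsyntenin, had 192, 265, 243 and 204 in Foxl2 KO ovaries, against 1297, 1092, 1548 and 900 in control ovaries (-2.32 ± 0.16, 4.99-fold, adjusted p = 7.66e-07). Of 108 synaptic and secretory vesicle genes 3 were lower and 1 was higher. Shisa9, a partner of glutamate receptors, was at 6.49 to 37.8 in Foxl2 KO ovaries and 130 to 363 in control ovaries, at least 4.06-fold lower, and Sytl4, which docks secretory granules, at 1037 to 1254 in Foxl2 KO ovaries and 1853 to 2639 in control ovaries (-1.06 ± 0.13). Grid1, a glutamate receptor subunit, was at 4.33 to 80.0 in Foxl2 KO ovaries and 170 to 206 in control ovaries, at least 3.34-fold lower. Of desmosome and cadherin genes, Dsg2, a desmoglein, was higher, at 629 to 1144 in Foxl2 KO ovaries and 328 to 492 in control ovaries (0.97 ± 0.18), and Pkp1, a plakophilin, was at least 1.74-fold higher. Dlgap3, Shisal1 and Celsr2 were called, but lost that without 5 to 7 of the 8 ovaries (adjusted p up to 0.137).

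Of the signalling pathways of the gonad, each had few members that moved. Among 51 genes of the activin, BMP and TGF-beta pathway, 2 were lower and 1 was higher. Smad3, which carries activin and TGF-beta signals to the nucleus and is a known partner of FOXL2, had 2506, 2769, 2688 and 2736 in Foxl2 KO ovaries, against 5549, 5326, 4690 and 3402 in control ovaries (-0.80 ± 0.16, adjusted p = 0.0148, and 0.0539 without Control 2). Bmper, a secreted regulator of BMPs, was at 49.4 to 95.8 in Foxl2 KO ovaries and 162 to 212 in control ovaries (-1.27 ± 0.23). Bmpr1b, a BMP receptor, rose by 0.84 on the log2 scale, and lost its call without Foxl2 KO 1, Foxl2 KO 4, Control 1 or Control 3 (adjusted p up to 0.0674) and with equal array medians. Fst, which binds activin, was not called. It had 1415, 1059, 1444 and 359 in Foxl2 KO ovaries, against 1814, 2452, 2256 and 1969 in control ovaries (-1.15 ± 0.34, limma, adjusted p = 0.147), with Foxl2 KO 4 far below the rest. The genotypes did not overlap, and a second probe set of Fst differed by -0.95, also without a call. The study reported Fst as downregulated in Foxl2 KO ovaries, with quantitative PCR.

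In the WNT pathway, which sustains ovarian fate, 3 of 66 genes were higher and none was lower (4.55% called, beside 1.52% of all genes). Lef1, a factor that acts with beta-catenin, had 1171, 1193, 1359 and 1097 in Foxl2 KO ovaries, against 622, 718, 607 and 427 in control ovaries (1.02 ± 0.15, adjusted p = 0.00153). Wnt9a, a ligand, had 661, 478, 617 and 458 in Foxl2 KO ovaries, against 237, 331, 152 and 194 in control ovaries (1.25 ± 0.23), and Wif1, a WNT inhibitor, was called while below background in both genotypes. Wnt4 and Rspo1, the ligands best known in the fetal ovary, differed by 0.42 ± 0.21 and 0.44 ± 0.15 and were not called (adjusted p = 0.500 and 0.228). Dhh, the hedgehog ligand of Sertoli cells, was the only called gene of 17 in its pathway, with 274, 302, 245 and 441 in Foxl2 KO ovaries, against 39.6, 78.2, 34.1 and 55.1 in control ovaries (2.30 ± 0.22, 4.93-fold, adjusted p = 3.99e-05). Its targets Ptch1 and Gli1 differed by -0.18 ± 0.18 and 0.59 ± 0.33 without a call. Among 20 genes of retinoic acid, Aldh1a3 rose and Crabp2, a binding protein, fell by 1.03 on the log2 scale (lost without 5 of the 8 ovaries, adjusted p up to 0.0755). Dtx1 was the only called gene of 25 in the Notch pathway, at 0.77, lost without 6 of the 8 ovaries (adjusted p up to 0.116) and of the opposite sign, -0.22, in its unshared probe set.

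Of 109 growth factor ligands and receptors, 2 were higher and 3 were lower. Gfra1, the receptor of GDNF, had 231, 310, 287 and 256 in Foxl2 KO ovaries, against 53.6, 133, 76.5 and 79.5 in control ovaries (1.54 ± 0.23, adjusted p = 0.00166). Fgf18 was at 574 to 1229 in Foxl2 KO ovaries and 329 to 439 in control ovaries (1.01 ± 0.19), a call lost with equal array medians. Angptl1 and Angptl6, secreted angiopoietin-like proteins, were lower by 1.61 and 1.59 on the log2 scale, with 92.4 to 138 and 77.1 to 117 in Foxl2 KO ovaries, against 280 to 484 and 144 to 434 in control ovaries. A second probe set of Angptl1 differed by 0.16 without a call. Kitl, the ligand by which granulosa cells support oocytes, had 1887, 1651, 1697 and 1114 in Foxl2 KO ovaries, against 2989, 2974, 3397 and 2177 in control ovaries (-0.86 ± 0.20, adjusted p = 0.0367). Its call was lost without any 1 of 6 ovaries (adjusted p up to 0.120) and was kept without Foxl2 KO 1 or Control 4. Fgf9 and Pdgfc, at 0.66 ± 0.17 and 0.72 ± 0.26, were not called (adjusted p = 0.0767 and 0.276).

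Genes typical of the supporting cells of either sex changed in a minority. Of 26 pre-granulosa genes, 4 were lower, namely Nr5a2, Foxl2, Esr2 and Kitl, and 3 were higher, namely Nr0b1, Lef1 and Wnt9a. Runx1, Lgr5 and Irx3 differed by 0.21 ± 0.19, 0.22 ± 0.26 and 0.53 ± 0.23 and were not called. Of 25 Sertoli genes, 6 were higher and 1 was lower, with a median of 0.38, beside 0.05 for all genes. Sox9, the factor that directs Sertoli cells, had 358, 363, 344 and 386 in Foxl2 KO ovaries, against 96.8, 129, 131 and 133 in control ovaries (1.46 ± 0.16, adjusted p = 0.000131), which left the groups well apart and close within themselves. Dmrt1, which keeps Sertoli fate in the adult testis, was at 115 to 237 in Foxl2 KO ovaries and 22.9 to 61.5 in control ovaries, at least 2.75-fold higher. Cst9, a testis cystatin, had 599, 483, 285 and 386 in Foxl2 KO ovaries, against 171, 133, 191 and 81.7 in control ovaries (1.51 ± 0.24), and Mmd2 rose by 1.21 ± 0.23. Clu, clusterin, was lower at 3915 to 4806 in Foxl2 KO ovaries and 6414 to 8291 in control ovaries, with a call that was lost without Foxl2 KO 2, Foxl2 KO 3 or Control 3 (adjusted p up to 0.0627). Amh, the Sertoli hormone, stayed below background in every ovary, and Sox8 and Ptgds were not called. Part of these lists had been named from the same samples by the study.

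Among other transcription factors the changes were few. Of 163 homeobox and paired-box genes, 3 were higher and 1 was lower (2.45% called, beside 1.52% of all genes). Pax8, a factor of kidney and reproductive tract tubules, had 470, 506, 460 and 527 in Foxl2 KO ovaries, against 55.7, 258, 144 and 154 in control ovaries (1.74 ± 0.35, adjusted p = 0.0184). It is also a mesonephric marker. The mesonephric markers together, 4 measured of 5, summed to 621 to 751 in Foxl2 KO ovaries and 176 to 408 in control ovaries. Pax8 itself made up most of the sums in Foxl2 KO ovaries, and without it the ranges overlap. Pax8 alone of these markers was called, and Lhx1 was below background in every ovary. The part of any remaining mesonephros in the Pax8 result was not tested. Pax8 lost its call without Foxl2 KO 2 or Foxl2 KO 4 (adjusted p up to 0.0585). Irx2 rose by 0.86 ± 0.16 (adjusted p = 0.0114). Hoxd11 was at least 1.90-fold higher and Msx1 at least 2.35-fold lower, both calls being lost without 4 or 5 of the ovaries (adjusted p up to 0.102), and a second probe set of Msx1 was below background. Mycn, a driver of cell growth, had 2237, 2002, 1963 and 2187 in Foxl2 KO ovaries, against 1119, 1346, 1288 and 978 in control ovaries (0.83 ± 0.12, adjusted p = 0.00195). Foxl2 was the only called one of 37 forkhead genes, and Foxp1 was at 2192 to 2401 in Foxl2 KO ovaries and 2384 to 2734 in control ovaries (-0.13 ± 0.11, adjusted p = 0.744).

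Cdkn1a, an inhibitor of cyclin-dependent kinases that halts the cell cycle, was the only called one of 8 such inhibitors. It had 1084, 716, 968 and 751 in Foxl2 KO ovaries, against 285, 367, 257 and 290 in control ovaries (1.49 ± 0.22, 2.82-fold, adjusted p = 0.00164). None of 37 genes of the cell cycle and DNA replication was called (2 at an unadjusted p under 0.05), and their median was -0.15, against 0.05 for all genes. Without Control 4 that median was 0.06. Ccnd1, a cyclin of early cycle, was at 785 to 1479 in Foxl2 KO ovaries and 486 to 690 in control ovaries (0.78 ± 0.21, adjusted p = 0.10). Peg10, an imprinted gene of retroviral origin that placental growth needs, had 822, 653, 874 and 490 in Foxl2 KO ovaries, against 2500, 2350, 3533 and 1883 in control ovaries (-1.83 ± 0.29, adjusted p = 0.00347). No call was made by limma among 26 apoptosis regulators (8 at an unadjusted p under 0.05), 26 immediate early and stress genes (7), 92 respiratory chain genes (1), 43 ribosomal protein genes (2) and 128 proteasome and chaperone genes (9). The chaperone gene Hspa1b was called lower without Foxl2 KO 3 or Control 1 (limma, adjusted p = 0.0472 and 0.0489), as was Hspa1a without Control 1 (limma, adjusted p = 0.0442). Without 1 array of the other genotypes, Hspa1b or the proteasome gene Psmd3 was called lower in 3 cases (limma, adjusted p down to 0.0482).

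Genes of the other cells of the newborn ovary were not called by the probe set that stood for each. This does not show that these cells were the same. None of 17 oocyte genes (0 at an unadjusted p under 0.05) and 26 germ cell and meiosis genes (1) passed limma's adjusted test, with medians of 0.30 and -0.02. Leaving out 1 ovary moved the oocyte median between 0.04 (without Foxl2 KO 4) and 0.50 (without Control 1), with 0.16 without Control 4, and the germ cell median between -0.13 (without Control 4) and 0.17 (without Foxl2 KO 4). The oocyte gene Nlrp5 was at 1352 to 6539 in Foxl2 KO ovaries and 4373 to 6354 in control ovaries, which overlap (-0.69 ± 0.46). There were likewise no calls among 16 endothelial (2), 16 macrophage (1), 17 stromal (2), 12 smooth muscle (4), 15 surface epithelium (1) and 9 erythroid genes (1). Mfap5, a stromal gene, was called lower without Control 1 (limma, adjusted p = 0.0312). With all arrays, its dimmer second probe set, above background, was called lower (-1.79 ± 0.32, limma over every probe set, adjusted p = 0.0116). Nkain4, a surface epithelium gene, was called higher without Control 2 (limma, adjusted p = 0.0279). Without Runx1 KO 3, which enters only the estimate of the spread, the smooth muscle gene Actg2 was called lower (limma, adjusted p = 0.00508). The erythroid median of -0.93 became -0.01 without Control 4. Slc4a1, the anion exchanger of red cells, read 67.0 to 138 in Foxl2 KO ovaries, against 9842 in Control 4 and 109 to 178 in the other control ovaries. After adjustment, the methods' one-way analysis of variance also called none of the genes of these lists, of those without a call in the paragraph on cell division and of the integrin and P450 families.

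Genes of the cytoskeleton were called at a share close to that of all genes, 1.52%. Of 99 tubulin and motor genes 2 were lower (2.02%). Kif26b, a kinesin, was at 188 to 291 in Foxl2 KO ovaries and 407 to 593 in control ovaries (-1.07 ± 0.17), and Dync1i1, a dynein chain, at 85.8 to 177 in Foxl2 KO ovaries and 291 to 449 in control ovaries (-1.37 ± 0.25). Myo1a, a myosin of microvilli, was the only called one of 85 myosin, actin and tropomyosin genes (1.18%). It was higher by 1.32 ± 0.26, and lost its call without Foxl2 KO 2 or Foxl2 KO 4 (adjusted p up to 0.0635).

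The rest of the largest changes fell in no list. Ptpre, a tyrosine phosphatase, had 680, 730, 795 and 722 in Foxl2 KO ovaries, against 251, 265, 151 and 274 in control ovaries (1.60 ± 0.17, adjusted p = 9.28e-05). Bmerb1, which carries a domain that binds Rab GTPases, had 960, 636, 771 and 798 in Foxl2 KO ovaries, against 153, 231, 289 and 241 in control ovaries (1.74 ± 0.23). Map3k21, a kinase upstream of stress kinases, was at least 2.58-fold higher (adjusted p = 5.2e-05). Pipox, which oxidises pipecolic acid, was at least 2.22-fold higher, but not called without any 1 of 5 ovaries (adjusted p up to 0.0754). Fam184b had 269, 235, 380 and 215 in Foxl2 KO ovaries, against 830, 1042, 1578 and 949 in control ovaries (-1.93 ± 0.31). Its other probe sets, both above background, differed by 0.26 and 0.74 without a call, and with the mean of all of them the gene was not called. Pnliprp2, a lipase, and Bves, a membrane protein that binds cyclic AMP, fell below background and were lower by at least 1.595-fold and 1.60-fold. Popdc3, a relative of Bves, was also lower, at 23.3 to 41.8 in Foxl2 KO ovaries and 107 to 225 in control ovaries, at least 2.44-fold, and is named after its values were seen. Of the 276 called genes, 107 belonged to a list or family and 16 had only predicted or clone names.

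The families not yet counted held at most 3 calls each. Of 148 other ion channel genes, Scn3b and Cacna1d were higher and Grid1 was lower (2.03%, beside 1.52% of all genes). Of 60 phospholipase and prostaglandin genes, Pla2g2f and Plcb4 were higher and Pla2r1 was lower (5%). Of 73 cadherins and calsyntenins, Dsg2 and Celsr2 were higher and Clstn2 was lower, and of 57 immunoglobulin adhesion molecules, Chl1 was higher and Robo1 was lower. A single gene was called among 20 Sox factors (Sox9), 87 basic helix-loop-helix factors (Mycn), 174 chemokines, cytokines and receptors (Il33), 11 mesonephric genes (Pax8), 34 genes of cholesterol and fatty acid synthesis (Hsd17b7) and 331 C2H2 zinc finger genes. The last of these was Zfp874a, higher by 0.84 on the log2 scale, with a call lost when Foxl2 KO 1, 2 or 3 or Control 2, 3 or 4 was left out (limma, adjusted p up to 0.0739). None was called by limma among 31 Gata, Klf and Sp factors (2 at an unadjusted p under 0.05), 42 complement and MHC genes (7), 48 keratins (5) and 26 histone genes (2), nor by the methods' analysis of variance after adjustment with its 1.5-fold limit. Klf10 was called lower without Foxl2 KO 2 (limma, adjusted p = 0.0344) and H2-Q10 higher without Control 4 (limma, adjusted p = 0.0384) or without any 1 of 3 arrays of the other genotypes (adjusted p down to 0.0204).

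Foxl2 lies on chromosome 9, where its near neighbours tend to be inherited with the null allele. Within 20 Mb, 321 other genes were tested, of which 12 were called (3.74%, beside 1.52% of all genes), 9 of them lower and 3 higher. The nearest were Nmnat3, at 0.67 Mb, and Clstn2, at 1.51 Mb, both lower. Dipk2a, at 4.44 Mb, was lower by 1.57 on the log2 scale, with 761 to 935 in Foxl2 KO ovaries and 2048 to 2924 in control ovaries. Chst2 was in this window too. An effect of FOXL2 loss and one of any sequence carried along with the null allele cannot be told apart for these genes. Every Foxl2 KO ovary was homozygous for the null allele, but how far linked sequence reaches around it is not given. The other 263 called genes besides Foxl2 lay outside the window. Foxl2os, a transcript that starts next to Foxl2 on the opposite strand, was named after its values were seen. It had 3174, 4256, 6582 and 6572 in Foxl2 KO ovaries, against 2743, 1816, 2247 and 1592 in control ovaries, with no overlap, and was not called (1.25 ± 0.34, adjusted p = 0.101).

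**Figure D4:**
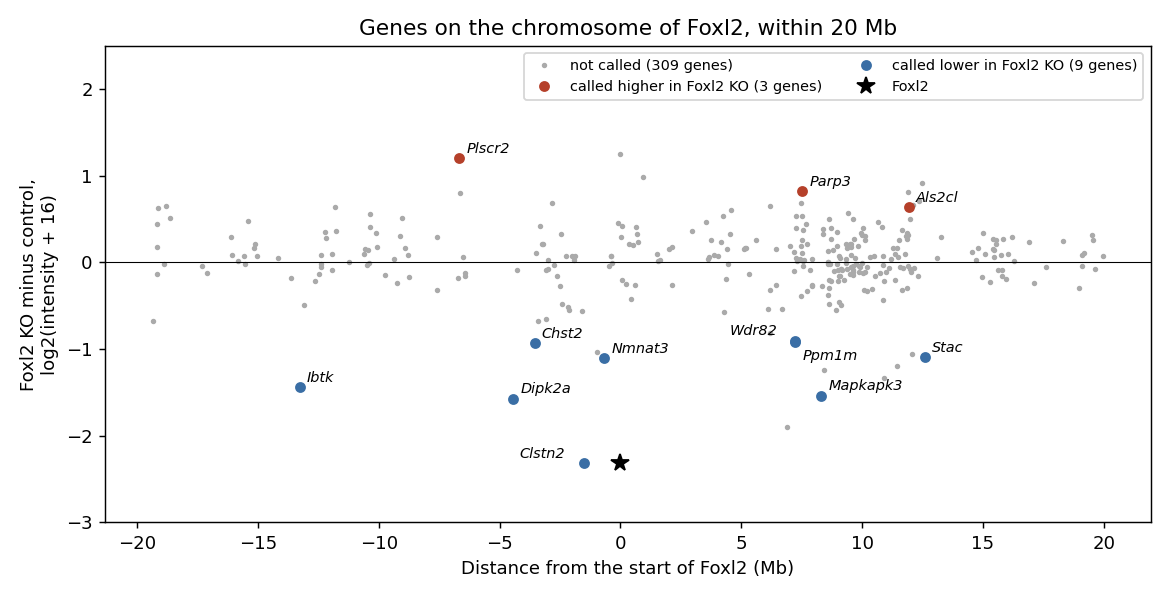
Difference between Foxl2 KO and control ovaries on the log2(intensity + 16) scale (vertical) against distance from the start of Foxl2 in Mb (horizontal), 1 point per gene within 20 Mb, with called genes in colour and Foxl2 as a star. Called genes lie on both sides of Foxl2, 9 of 12 of them below zero, and Clstn2 falls as far as Foxl2 itself.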

How the data were processed

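RNA from single newborn XX ovaries was amplified, biotin-labelled and hybridised to Affymetrix Mouse Genome 430 2.0 arrays. The deposited values are linear intensity values, 1 for each probe set, made by the authors in Affymetrix Expression Console 1.2 (per the submitters' processing notes) and scaled to the same trimmed mean in every array; the algorithm is not given in the sources used here, and the study itself tested log2 values from another program. All 16 value columns were matched to samples. Of 45101 probe sets, 64 were controls, 34945 matched 1 gene, 932 several and 9160 none in the platform annotation. Only those that matched 1 gene entered the main test. After adding 16, log2 was taken, and the probe set with the highest mean over the 16 arrays stood for each of 18193 genes (9010 had several).

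In limma 3.58.1, a linear model with 4 genotype means was fitted to the 16 arrays together (lmFit, eBayes; R 4.3.3, statmod 1.5.0; residual degrees of freedom 12, prior 3.32), and only the contrast of Foxl2 KO minus control was read. Tests were two-sided with Benjamini-Hochberg adjustment over all genes. The Runx1 KO and double knockout arrays enter only the estimate of the spread. On simulated data with 200 changed genes over 18193 genes, 18.2% of 1.5-fold, 58.1% of 2-fold and 92.3% of 4-fold changes were recovered, and 4.86% of calls were false. Normal noise was drawn there independently for each gene and array, with no shift shared by the genes of an array. These shares therefore need not hold for the real arrays. Precision is set by 4 arrays a genotype, each a separate ovary.

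Genes described were Foxl2, the 20 largest rises and 20 largest falls among called genes whose genotypes did not overlap (predicted genes left out), called members of 24 lists and 37 symbol families (antisense, pseudogene and clone symbols left out) or else the 1 or 2 with the smallest p, and genes that the study named. One family is not reported here. Members, lists and families were chosen with earlier results of these data known. Background was the highest mean of 5 Y-linked genes. Sry, which read higher, was left out, since its probe set is shared with other transcripts. Outlying ovaries were found with Dixon's ratio at a critical value of 0.829 for 4 samples.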

Additional observations from a re-analysis of the deposited data

Results flagged for a closer look

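In 26 of 330 groups of 4 ovaries examined over the genes described (7.88%), 1 ovary lay apart from its group by Dixon's ratio of gap to range. Chance would flag about 1 group in 20. Of the 26, 6 were in Control 4, 4 in Control 1, 3 in Control 3 and 1 in Control 2, and among Foxl2 KO ovaries 5 were in Foxl2 KO 4, 4 in Foxl2 KO 1 and 3 in Foxl2 KO 2.

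Foxl2 KO 4 was above its group for Hsd17b3 (563, the others 216 to 236) and Slc4a1 (138, the others up to 74.9). It was below its group for Plcb4 (451), Cldn11 (591) and the connexin gene Gja1 (5178, the others 6001 to 6182). Foxl2 KO 1 was low for Esr2 (12.2), Trp73, a relative of the p53 gene (61.0), and the ribosomal protein gene Rpl39 (238), and high for Ptger2 (17.6). Foxl2 KO 2 was low for the lipase gene Pnliprp2 (7.55) and the microfibril gene Mfap5 (103), and high for Chst8 (12.3).

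Control 4 was highest for Slc4a1 (9842, the others 109 to 178) and lowest for Slc26a7 (1010, the others 1620 to 1712), Ephx2 (718), Nlrp5 (4373), Ptger2 (42.1) and Angptl6, which codes for a secreted protein (144, the others 380 to 434). Control 1 was lowest for Nr0b1 (164, the others 266 to 284), Sox9 (96.8), Thbs2 (1202) and Gja1 (6414). Control 3 was lowest for the phosphatase gene Ptpre (151) and highest for Clu (8291) and the cytochrome P450 gene Cyp4v3 (368). Control 2 was highest for Fbn2 (4152). Among the called genes of these, Clu lost its call without Control 3 and Plcb4 kept it without Foxl2 KO 4, and Hsd17b3, Nr0b1, Slc26a7, Ephx2, Sox9, Thbs2, Fbn2, Esr2 and Angptl6 kept theirs without the ovary that lay apart.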

How the results depend on the processing

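The count of 276 genes (148 higher and 128 lower in Foxl2 KO ovaries) came to 175 (93 and 82) with only the 8 arrays compared, which leaves fewer samples to estimate the spread. The methods' one-way analysis of variance with its 1.5-fold minimum gave 914 (586 and 328) without adjustment and 193 (98 and 95) after Benjamini-Hochberg adjustment. In limma, testing every probe set on its own gave 407 probe sets (206 and 201). Equal array medians gave 241 (97 and 144), quantile normalization 271, an offset of 1 in place of 16 gave 243 and one of 50 gave 300. The mean of all probe sets gave 270, unshared probe sets 219, only the genes of higher level 223, a prior with trend and robust fit 308, weighted arrays 329 and a 1.5-fold minimum 272. Leaving out each of the 16 arrays in turn gave 183 to 294 calls, 97 to 158 of them higher and 84 to 136 lower; among the 8 arrays compared the lowest count came without Control 3 and the highest, 239, without Control 4, with 174 and 209 of the 276 genes called again. With the replicate number as a block 220 genes were called (113 and 107), 208 of them among the 276. Whether the numbers pair the ovaries is not known, since the labels do not say. In same-numbered pairs of Foxl2 KO and control the correlation of deviations was 0.0135 to 0.136, over 0.1 in 1 of 4. So few pairs cannot decide it.

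Of the 118 called genes described, 78 kept their call without each of the 8 ovaries and 60 kept it in every alternative that held the gene (29 to 31). Only with unshared probe sets did any change sign: Dtx1 to -0.22, Ust to 0.0894 and Msx1 to 0.36, where the probe set of Msx1 was below background. Of 87 other probe sets above background, in 51 of these genes, 81 had the direction reported and 6 the opposite one, all 6 without a call (Angptl1, Dtx1, Fam184b, Hsd17b7 and Ust). The cause was not tested. Dim signal leaves only a bound for the folds of 22 lower and 25 higher genes with 1 genotype below background, and no fold for 4 lower and 13 higher genes with both below it. No p tells fewer cells of a type from less RNA per cell.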
